A study of Mus musculus with 13 samples.

Results

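Interferon-stimulated genes are the genes that cells switch on when an interferon reaches its receptor. The set described here holds 47 genes chosen by symbol among the 23951 symbols of the deposited tables, and all 47 were found in both tables. They were followed in RNA sequencing of mouse mammary gland from females with a conditional knockout of Jak1 and from wildtype controls. Glands at day 7 of lactation gave 3 control and 3 knockout libraries. Glands at day 2 of involution, the regression of the gland after milk removal stops, gave 3 control and 4 knockout libraries. Neither the Cre driver of the knockout, nor the deleted cells, the strain or the age is stated in the labels. Libraries are called by the mouse number in their titles, which puts M43768 among the controls and M43767 among the knockouts at both stages. The labels speak of 6 control mice and 7 knockout mice whereas the titles hold 11 numbers, and whether those 2 mice were sampled at both stages is not stated. All levels are in FPKM, sequenced fragments scaled to the length of the transcript and to the library, so that levels of different genes can be set side by side.

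JAK1 is a tyrosine kinase bound to the receptors of type I interferon, type III interferon and interferon gamma. At the type I receptor it works with TYK2 and activates transcription factors that join IRF9 and bind the interferon-stimulated response element (ISRE). At the interferon gamma receptor it works with JAK2, and the response runs through the gamma activated site (GAS). In the mammary gland the kinase also serves receptors of the LIF and oncostatin M family, which act through STAT3 when the gland regresses. The Ifit, Mx and Oas genes are classical targets of type I interferon. The guanylate-binding proteins (Gbp) and immunity-related GTPases (Irgm, Igtp, Iigp1, Ifi47) are classical targets of interferon gamma, although many genes of both kinds answer to either interferon.

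Promoter sequences from RefSeq (build GRCm38.p6, another build than that of the deposited values) were found for 34 of the 47 genes, in 36 entries of 300 bases each, running from 250 bases before to 50 bases after the transcription start. The stretches below show the motifs through which the pathway is known to act, in genes of the type I kind, in Isg15, in Rsad2, whose genotype groups did not overlap at involution, and in genes of the gamma kind. All lie before the transcription start and run 5′ to 3′ on the gene's strand. Capitals mark the core of the ISRE on either strand, GAAANNGAAA, and in Igtp and Irgm2 also the GAS core, TTCNNNGAA, which reads alike on both strands and stands first.
Ifit1 (chr19:34640745-34640853, plus strand): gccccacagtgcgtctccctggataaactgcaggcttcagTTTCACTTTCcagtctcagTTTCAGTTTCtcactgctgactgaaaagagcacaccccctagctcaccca
Oas1a (chr5:120907526-120907585, minus strand): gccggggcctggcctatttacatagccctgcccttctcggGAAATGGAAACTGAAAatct
Oas1g (chr5:120887614-120887671, minus strand): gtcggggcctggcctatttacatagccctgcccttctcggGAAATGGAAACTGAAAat
Isg15 (chr4:156200835-156200936, minus strand): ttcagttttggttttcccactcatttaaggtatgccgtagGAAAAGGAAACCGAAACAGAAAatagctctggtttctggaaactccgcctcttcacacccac
Rsad2 (chr12:26456523-26456612, minus strand): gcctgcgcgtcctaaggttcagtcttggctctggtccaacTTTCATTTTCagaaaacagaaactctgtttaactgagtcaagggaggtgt
Gbp2 (chr3:142620564-142620653, plus strand): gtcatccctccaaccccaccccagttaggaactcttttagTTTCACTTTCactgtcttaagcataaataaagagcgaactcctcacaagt
Gbp3 (chr3:142559959-142560043, plus strand): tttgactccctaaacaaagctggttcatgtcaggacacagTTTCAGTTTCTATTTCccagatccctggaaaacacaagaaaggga
Irgm1 (chr11:48871421-48871490, minus strand): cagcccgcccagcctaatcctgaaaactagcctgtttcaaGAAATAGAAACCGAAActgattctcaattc
Igtp (chr11:58199471-58199555, plus strand): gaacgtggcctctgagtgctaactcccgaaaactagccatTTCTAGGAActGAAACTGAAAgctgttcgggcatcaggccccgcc
Irgm2 (chr11:58214862-58214962, plus strand): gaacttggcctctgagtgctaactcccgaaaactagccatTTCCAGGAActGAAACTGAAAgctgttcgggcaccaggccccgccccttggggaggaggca
Ifit1 carried 2 separate copies of the ISRE core. In Isg15, Oas1a, Oas1g, Gbp3 and Irgm1 copies overlapped, so that 3 cores in Isg15 and 2 in each of the others formed 1 longer run. Igtp and Irgm2, which neighbour each other, held a GAS core followed after 2 bases by an ISRE core, within stretches that are nearly the same.

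The ISRE core was present in 21 of the 36 entries (58.3%), against 3.44% of the 32851 promoters in the RefSeq table. The GAS core was present in 11 of the 36 entries (30.6%), against 8.3% of all promoters. Of the Ifit, Mx and Oas genes 8 had entries, and Mx1, Mx2, Oas1b and Oas2 had none. Of the 9 entries of these Ifit and Oas genes, 5 held the ISRE core (55.6%) and 2 the GAS core. Among the Gbp and Irg genes, without Gbp6 and Iigp1, which had no entry, 7 of 9 entries held the ISRE core (77.8%) and 4 the GAS core (44.4%). The ISRE core was thus found in both kinds of gene. So was the GAS core, as Oas1a held one 98 bases before the start, outside the stretch shown. Neither core was found in Ifi47, Cmpk2, Ifi44, Xaf1, Ifitm1, Lgals3bp, Oasl1, Oasl2, Parp12 or Trim25. Parp9, Parp14 and Ifi27l2a, whose groups did not overlap at involution, had no entry. Ifi47 was the tested gene without overlap at lactation. A match describes the letters of the window only.

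Jak1 itself stood at 14.2, 14.03 and 6.18 FPKM in the lactation controls (M42186, M43768 and M44175) and at 9.51, 10.2 and 11.2 FPKM in the lactation knockouts (M44174, M42734 and M43767). At involution it stood at 24.3, 23.97 and 24.6 FPKM in the controls (M44448, M43768 and M43914) and at 22.999, 22.2, 26.3 and 17.3 FPKM in the knockouts (M43196, M43767, M44176 and M44440). Values below follow this order of libraries. The groups overlapped at both stages, with a log2 difference of -0.0043 ± 0.35 (SE) at lactation and -0.12 ± 0.17 (SE) at involution. A gene-level value does not show which exons were read, so it checks neither the deletion nor the labels. The upper quartile of FPKM was 3.06 to 3.21 in the lactation table and 8.61 to 9.07 in the involution table, and the tables may have been normalized separately. Knockout and control were therefore compared within a stage. Among the luminal markers, Krt8, Krt18, Epcam, Cdh1, Elf5, Esr1, Prlr and Lalba were detected. Wap and Csn2, both milk protein genes, had an entry of 0 in each of the 13 libraries. Summed markers of skin keratinocytes reached 138 FPKM in involution knockout M43767 and at most 3.64 FPKM in the other libraries. Without that library the log2 differences at involution, whose full values follow below, were -0.76 for Rsad2, -0.56 for Parp9 and 2.09 for Ifi27l2a.

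No interferon-stimulated gene passed the test for a difference between knockout and control at either stage. The test was made with limma on log2(FPKM + 1) after rescaling each library, over all genes that reached 1 FPKM in 3 or more libraries of the stage, with Benjamini-Hochberg adjustment over those genes and a threshold of 0.05. At lactation 29 of the 47 genes could be tested and 0 passed, where 0.0105% of 9560 genes passed. At involution 45 could be tested and 0 passed, where 0.0719% of 12509 genes passed. At an unadjusted p under 0.05 limma counted 1 gene higher and 1 lower in the knockout at lactation, Ifi27l2a and Ifi47, where the background was 1.78% and 0.607% of genes. At involution it counted 1 higher, Ifi27l2a, and 2 lower, Rsad2 and Parp9, where the background was 3.6% and 3.24%. Each p-value sets the group difference against the spread between libraries within the groups, moderated towards a trend over all genes. In whole tissue, fewer cells of a type and less RNA per cell cannot be told apart.

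The median log2 difference (knockout minus control) of the 45 genes tested at involution was -0.05, with 21 above 0, against 0.01 over all genes tested. At lactation it was -0.03 over the 29 genes tested, with 12 above 0, against 0.01 over all genes. Groups that did not overlap were counted on the deposited FPKM over the tested genes. At involution they were found for Ifi27l2a, above the controls, and for Rsad2, Parp9 and Parp14, below them. The background of such genes at involution was 2.67% higher and 4.42% lower. At lactation the count over the 29 tested genes was 0 above and 1 below, Ifi47, with a background of 2.89% and 3.17%. Ifit2 at lactation and Oas1g at involution, below the filter and outside these counts, are described below. These counts changed with single libraries: at involution 4 became 12 without control M43768, 11 without control M43914 and 7 without knockout M44440. At lactation 1 became 9 without control M42186, 3 without control M44175, and 4 without knockout M44174 or without knockout M43767. With fewer libraries in a group, groups of any gene lie apart more easily. The share over all genes was not counted for these smaller sets, so these changed counts have no background.

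**Figure D1:**
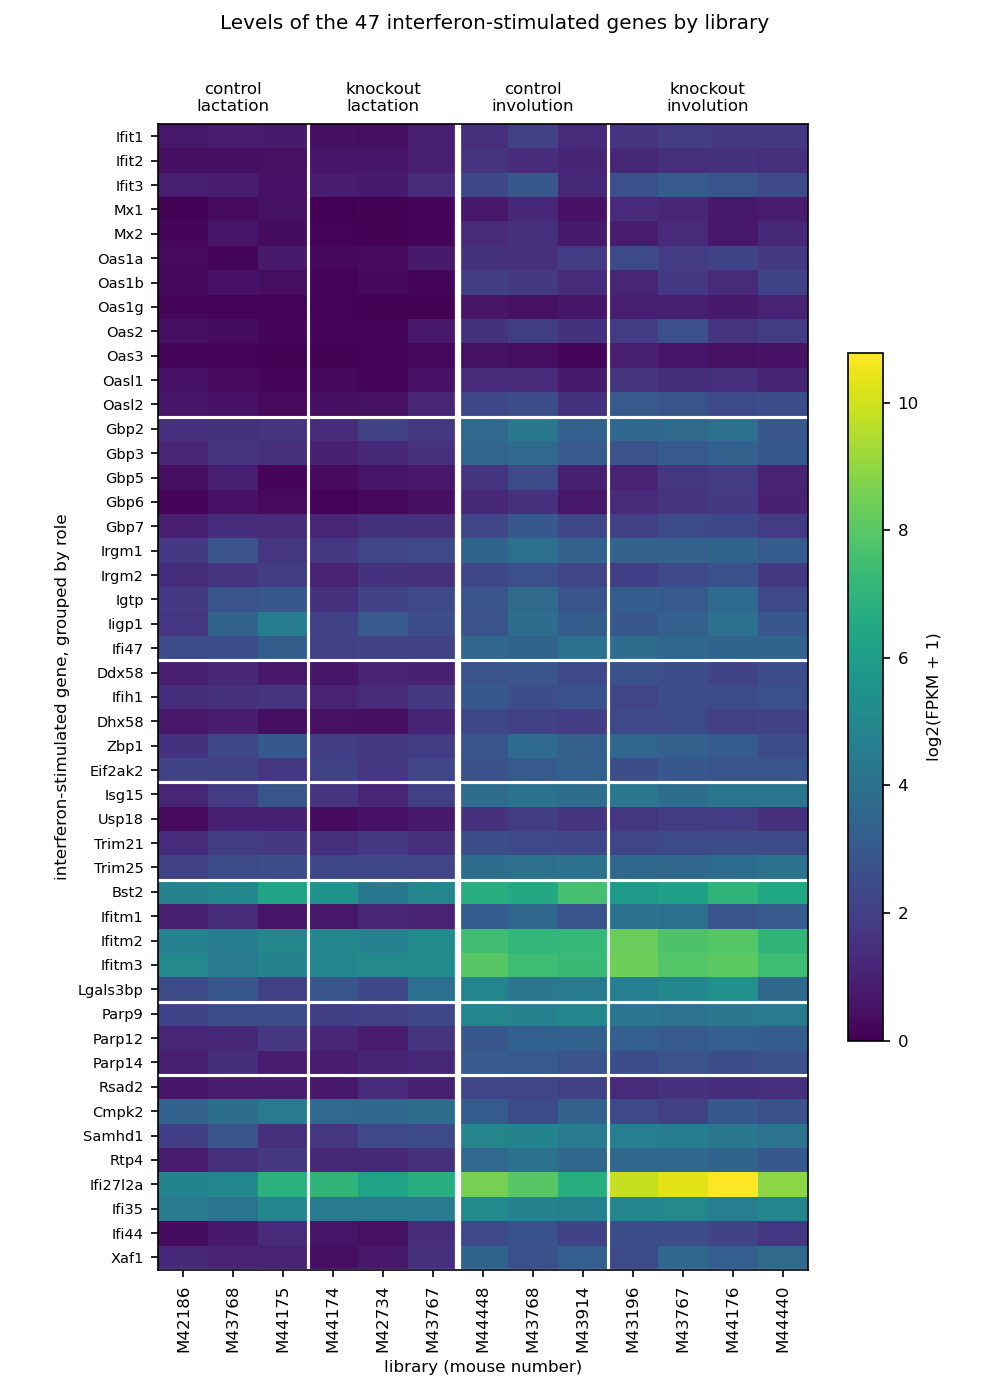
Colour gives log2(FPKM + 1) for each of the 47 genes (vertical axis, grouped by role with white lines between the roles) in each of the 13 libraries (horizontal axis, by group). Ifi27l2a, Ifitm2, Ifitm3 and Bst2 are the brightest rows, the Ifit, Mx and Oas rows are darkest in the lactation libraries, and Ifi27l2a is brightest in the involution knockouts.

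The Ifit, Mx and Oas genes were close to the floor of the lactating gland. The Ifit proteins bind foreign RNA, the Mx proteins are dynamin-like GTPases that trap viral particles, and the Oas proteins make the oligoadenylates that activate RNase L. None of the 12 genes reached the filter at lactation, so none was tested there within the stage. Their summed level at lactation was 3.95, 4.54 and 3.85 FPKM in controls against 2.81, 2.69 and 6.86 in knockouts. The knockout M43767 held the highest value of 8 of the 12 genes at this stage. Ifit2 stood at 0.346, 0.368 and 0.417 FPKM in lactation controls against 0.527, 0.535 and 0.881 in knockouts, without overlap but near the floor. At involution the sums were 23.1, 29.2 and 15.1 FPKM in controls against 30.1, 34.2, 25.96 and 27.002 in knockouts. Control M43914 was lowest for 7 of the 12 genes, and the other libraries of both groups overlapped in their sums.

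At involution 10 of these 12 genes could be tested, and 8 had a log2 difference above 0, with a median of 0.26, while 0 passed the test. The median was 0.09 without control M43914. Ifit1 stood at 1.75, 3.30 and 1.53 FPKM in controls against 2.21, 2.69, 2.46 and 2.48 in knockouts, with a log2 difference of 0.17 ± 0.20 (SE). The control M43768 held the highest Ifit1 value of all, and the knockouts lay close together within the control range. Ifit3 stood at 4.03, 6.62 and 1.34 FPKM in controls against 5.22, 7.56, 5.90 and 4.22 in knockouts, a log2 difference of 0.58 ± 0.38 (SE). Here control M43914 lay below every other library. Without M43914 the difference was 0.11 for Ifit3 and 0.02 for Ifit1, and without control M43768 it was 0.96 and 0.40. Without control M44448 it was 0.098 for Ifit1. Mx1 was 0.614, 1.33 and 0.432 FPKM in controls against 1.48, 1.23, 0.677 and 0.834 in knockouts, with overlapping groups.

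Oas1a stood at 1.92, 1.78 and 2.82 FPKM in involution controls against 4.37, 2.80, 3.62 and 2.44 in knockouts, a log2 difference of 0.45 ± 0.20 (SE), with 95% limits of -0.006 to 0.91 and a limma adjusted p of 0.738. Only control M43914 reached into the knockout range. Oasl2, a synthetase-like protein, stood at 4.01, 4.93 and 1.99 FPKM in controls against 6.96, 5.99, 4.29 and 4.92 in knockouts, a log2 difference of 0.55 ± 0.26 (SE), with 95% limits of -0.04 to 1.15 and a limma adjusted p of 0.787. The knockouts M43196 and M43767 were above every control, and control M43914 was again lowest. Without M43914 the difference was 0.26. Oas2 was 1.98, 3.04 and 2.01 FPKM in controls against 2.72, 5.21, 2.04 and 2.65 in knockouts, so that the groups overlapped, with M43767 on top. The log2 difference was 0.29 ± 0.26 (SE), or 0.08 without M43767. Oas1g, 0.461, 0.419 and 0.571 FPKM in controls against 0.857, 0.937, 0.696 and 1.08 in knockouts, did not overlap but stayed below the filter and was not tested. The Oas1 genes are near-identical copies of each other, and the division of shared reads between them is not stated.

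**Figure D2:**
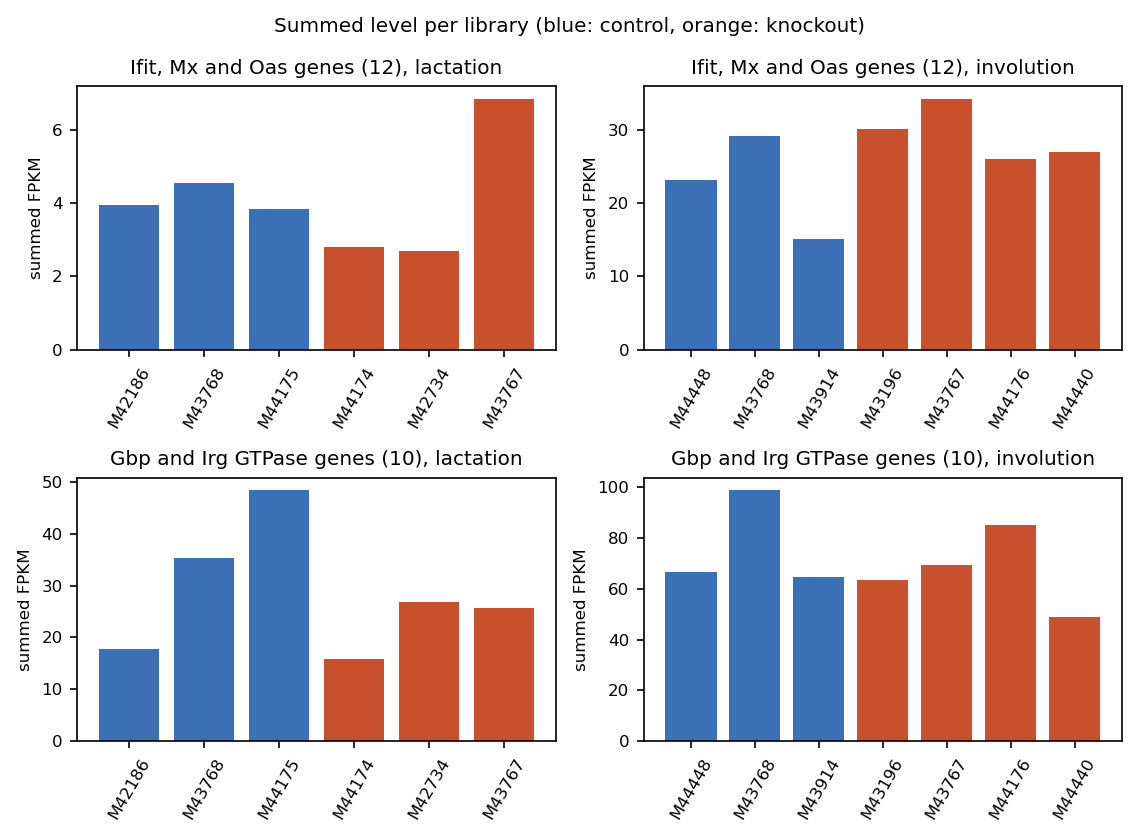
Bars give the summed FPKM of the 12 Ifit, Mx and Oas genes (top) and of the 10 Gbp and Irg GTPase genes (bottom) in each library at lactation (left) and involution (right), controls in blue and knockouts in orange. At involution control M43914 has the lowest sum of the Ifit, Mx and Oas genes, and control M43768 the highest sum of the Gbp and Irg genes.

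The Gbp and Irg GTPases were the more abundant kind at both stages. These GTPases gather on vacuoles that hold intracellular pathogens and help to open them. Their summed level at lactation was 17.8, 35.3 and 48.4 FPKM in controls against 15.8, 26.8 and 25.6 in knockouts. At involution it was 66.6, 98.99 and 64.8 FPKM in controls against 63.5, 69.4, 85.1 and 48.8 in knockouts. The groups overlapped at both stages, with control M43768 highest for 5 of the 10 genes at involution and knockout M44440 lowest for 6.

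All 10 genes could be tested at involution, where 2 had a log2 difference above 0, the median was -0.18, and 0 passed. The median was 0.0078 without control M43768 and -0.0092 without knockout M44440, so its side of 0 rested on single libraries. Gbp3 stood at 10.6, 11.9 and 7.54 FPKM in controls against 5.82, 7.34, 9.001 and 6.79 in knockouts, a log2 difference of -0.39 ± 0.20 (SE), with 95% limits of -0.84 to 0.07 and a limma adjusted p of 0.831. Knockout M44176 and control M43914 made the groups overlap. Gbp2 was 11.7, 18.7 and 9.07 FPKM in controls against 11.7, 12.2, 14.3 and 6.58 in knockouts, and its log2 difference of -0.18 ± 0.30 (SE) became 0.08 without control M43768 and 0.03 without knockout M44440. Gbp7 was 3.96, 6.70 and 3.89 FPKM in controls against 3.18, 4.65, 4.08 and 2.74 in knockouts, a log2 difference of -0.29 ± 0.22 (SE). Irgm1, a regulator of the other Irg proteins and of autophagy, was 10.04, 14.6 and 9.34 FPKM in controls against 9.55, 9.39, 9.79 and 7.71 in knockouts, a log2 difference of -0.24 ± 0.18 (SE). The knockouts reached into the control range for each of Gbp2, Gbp7 and Irgm1. Without control M43768 the difference was -0.08 for Gbp7 and -0.06 for Irgm1. It was -0.19 for Gbp7 without knockout M44440 and -0.37 for Irgm1 without control M43914. Igtp was 6.21, 12.2 and 6.18 FPKM in controls against 7.76, 7.02, 12.6 and 4.17 in knockouts, and Iigp1 was 5.83, 13.6 and 8.08 FPKM in controls against 6.56, 8.89, 14.1 and 6.52 in knockouts. For both genes M43768 among the controls and M44176 among the knockouts were the high libraries.

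At lactation 8 of the 10 Gbp and Irg genes could be tested, 3 with a log2 difference above 0, and the median was -0.17. That median was -0.015 without knockout M44174, -0.27 without control M42186 and -0.29 without knockout M43767. Ifi47 was the gene of this kind whose groups did not overlap: it stood at 4.70, 5.10 and 7.94 FPKM in controls against 3.07, 3.19 and 3.22 in knockouts, which lay very close together. Its log2 difference was -0.65 ± 0.20 (SE) with 95% limits of -1.12 to -0.18 and a limma adjusted p of 0.998. At involution Ifi47 overlapped, with 10.8, 9.70 and 15.4 FPKM in controls against 13.4, 11.3, 10.3 and 9.69 in knockouts. Gbp2 at lactation was 1.84, 1.95 and 2.14 FPKM in controls against 1.56, 3.31 and 2.39 in knockouts, and Gbp7 was 0.849, 1.62 and 1.56 FPKM in controls against 1.25, 1.997 and 1.88 in knockouts. Igtp was 2.43, 5.71 and 6.72 FPKM in controls against 1.93, 3.31 and 4.24 in knockouts, a log2 difference of -0.42 ± 0.34 (SE). Without single libraries it ran from -0.74 (without control M42186) to -0.18 (without knockout M44174), with -0.27 without control M43768 and -0.23 without control M44175. Iigp1 spread furthest, with 2.24, 9.66 and 22.8 FPKM in controls against 3.37, 7.15 and 4.85 in knockouts. Control M44175 was the highest library for Igtp, Iigp1 and Ifi47. The summed markers of T and NK cells, the usual sources of interferon gamma, were 1.84, 31.9 and 8.16 FPKM in lactation controls against 2.45, 3.97 and 2.59 in knockouts, with control M43768 highest. At involution these sums were 17.6, 12.8 and 11.7 FPKM in controls against 9.57, 11.01, 12.3 and 7.98 in knockouts. The groups overlapped there, with knockout M44440 lowest, and 2 of 5 tested markers had a log2 difference above 0. The part of T and NK cells in the Gbp and Irg levels was not tested at either stage.

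No sensor of foreign nucleic acid passed the test. Of Ddx58, Ifih1, Dhx58, Zbp1 and Eif2ak2, all tested at involution, 1 had a log2 difference above 0, and the 5 differences ran from -0.23 to 0.12. Zbp1, a sensor of Z-form nucleic acid, stood at 6.37, 12.5 and 8.51 FPKM in controls against 11.5, 8.91, 7.72 and 4.51 in knockouts, from the lowest to nearly the highest library within the knockouts alone. At lactation it was 2.01, 4.09 and 6.86 FPKM in controls against 2.88, 2.58 and 2.61 in knockouts. Eif2ak2, the kinase PKR that stops translation on double-stranded RNA, stood at 5.41, 7.27 and 8.92 FPKM in involution controls against 4.87, 6.66, 5.91 and 5.94 in knockouts. The groups overlapped for all 5 genes.

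Isg15, a ubiquitin-like protein that is attached to other proteins, stood at 13.3, 15.1 and 13.5 FPKM in involution controls against 18.6, 14.02, 17.5 and 17.1 in knockouts. Its log2 difference was 0.27 ± 0.14 (SE), with 95% limits of -0.05 to 0.59 and a limma adjusted p of 0.859. Knockouts M43196, M44176 and M44440 were above every control and M43767 was not. At lactation Isg15 was 1.25, 2.72 and 6.12 FPKM in controls against 2.12, 1.21 and 3.06 in knockouts, with the controls spread over nearly the whole range. Usp18, which removes ISG15 and dampens the type I receptor, stood at 1.86, 2.87 and 2.14 FPKM in involution controls against 2.25, 2.80, 2.70 and 1.83 in knockouts, a log2 difference of 0.07 ± 0.17 (SE). The ubiquitin ligases Trim21 and Trim25 had log2 differences of 0.03 ± 0.13 (SE) and -0.21 ± 0.15 (SE) at involution.

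Among the membrane and secreted proteins, 4 of 5 had a log2 difference above 0 at each stage, with medians of 0.27 at lactation and 0.30 at involution. Ifitm3, which blocks the fusion of viruses with the cell, stood at 249, 174 and 152 FPKM in involution controls against 341, 234, 265 and 173 in knockouts. Its neighbour Ifitm2 stood at 177, 139.7 and 144 FPKM in controls against 321, 217, 247 and 131 in knockouts. For both, knockouts M43196 and M44176 were above every control and M44440 was within or below the control range. The log2 differences were 0.41 ± 0.28 (SE) for Ifitm3 and 0.54 ± 0.30 (SE) for Ifitm2. Without knockout M43196 they were 0.26 and 0.35. For Ifitm3 the difference was 0.25 without control M43914 and 0.64 without control M44448. The summed markers of macrophages moved with them, at 557, 426 and 444 FPKM in controls against 1059, 568, 673 and 351 in knockouts, with M43196 highest and M44440 lowest. Of the 11 macrophage markers 10 had a log2 difference above 0 at involution, with a median of 0.37, and their part in the Ifitm levels was not tested. The summed markers of fibroblasts were 465, 203 and 279 FPKM in controls against 875, 443, 751 and 329.6 in knockouts, in the same order of the knockouts. All 8 fibroblast markers had log2 differences above 0 at involution, with a median of 0.79, and their part was not tested either. Ifitm3 at lactation was 32.3, 21.4 and 26.9 FPKM in controls against 29.1, 32.7 and 35.7 in knockouts, a log2 difference of 0.34 ± 0.25 (SE), which was 0.53 without control M42186 and 0.21 without control M43768. Bst2, the tether that holds budding virus at the cell surface, was the gene of this role with a difference under 0 at involution, at 106, 90.9 and 191 FPKM in controls against 57.9, 70.7, 131 and 87.3 in knockouts, a log2 difference of -0.54 ± 0.34 (SE). Control M43914, the lowest library for most Ifit, Mx and Oas genes, was the highest for Bst2, whose difference was -0.24 without it. The secreted glycoprotein Lgals3bp was 4.45, 6.50 and 3.11 FPKM in lactation controls against 6.44, 3.98 and 14.5 in knockouts, with M43767 alone far above the rest. The log2 difference of 0.64 ± 0.45 (SE) was 0.18 without M43767, 0.39 without control M44175 and 1.02 without knockout M42734. At involution it was 29.9, 18.5 and 21.3 FPKM in controls against 24.3, 31.5, 42.6 and 11.1 in knockouts, and the groups overlapped.

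**Figure D3:**
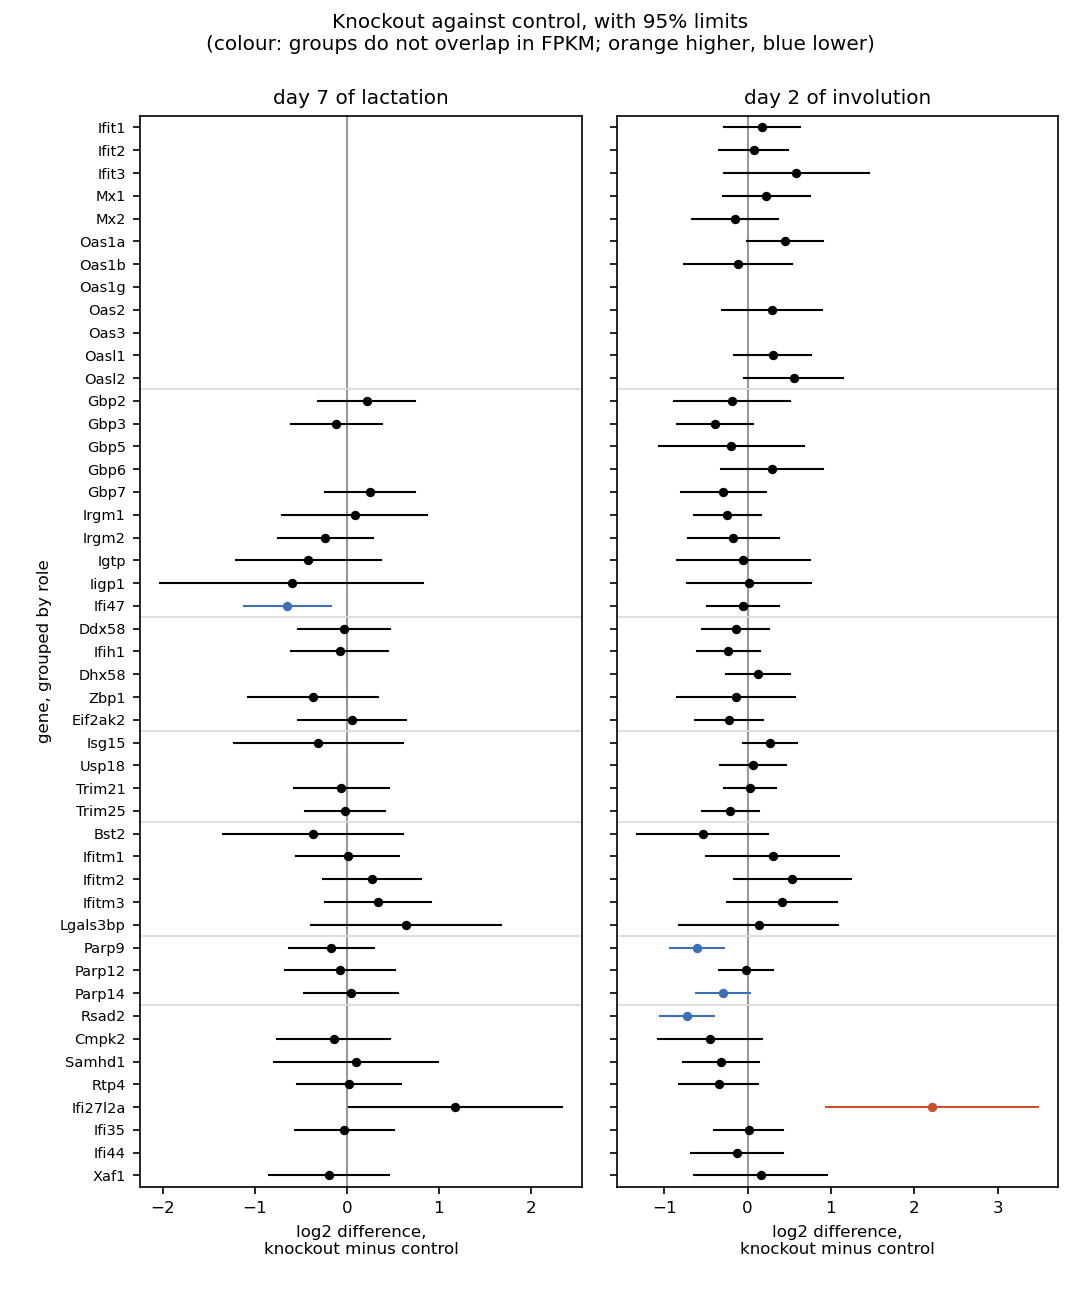
Points give the log2 difference (knockout minus control) of each tested gene on the log2(FPKM + 1) scale at lactation (left) and involution (right), and lines the 95% limits. Blue and orange mark genes whose groups did not overlap in FPKM, and an empty row is a gene below the filter. Rsad2 and Parp9 lie below 0 and Ifi27l2a above 0 with their limits at involution.

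The ADP-ribosyltransferases Parp9, Parp12 and Parp14 all had log2 differences under 0 at involution, with a median of -0.29. Parp9, which works with a ubiquitin ligase in the interferon response, stood at 30.3, 25.4 and 29.6 FPKM in controls against 17.8, 16.2, 18.3 and 19.8 in knockouts. Every knockout lay below every control, at means of 18.01 ± 1.51 FPKM (SD, n = 4) and 28.4 ± 2.62 FPKM (SD, n = 3). The log2 difference was -0.61 ± 0.14 (SE) with limits of -0.93 to -0.28 and a limma adjusted p of 0.360. Parp14, a partner of Parp9, stood at 7.45, 7.08 and 5.81 FPKM in controls against 4.85, 5.67, 4.97 and 5.45 in knockouts, again without overlap but with a small gap between M43914 and M43767. Its log2 difference was -0.29 ± 0.14 (SE), with 95% limits of -0.61 to 0.03 and a limma adjusted p of 0.792, and the groups overlapped after the libraries were rescaled, an alternative chosen after seeing the data. Parp12 stood at 6.70, 9.13 and 9.07 FPKM in controls against 8.37, 7.23, 8.40 and 7.84 in knockouts, a log2 difference of -0.02 ± 0.14 (SE). At lactation Parp9 overlapped, with 3.53, 4.47 and 4.64 FPKM in controls against 2.98, 3.32 and 4.12 in knockouts, and so did Parp14, with 0.859, 1.63 and 0.793 FPKM in controls against 0.778, 1.16 and 1.35 in knockouts.

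Rsad2 encodes viperin, a radical SAM enzyme that makes a chain-terminating nucleotide, and it gave the smallest p of the set at involution. It stood at 3.71, 3.74 and 3.12 FPKM in controls against 1.41, 1.87, 1.65 and 1.84 in knockouts. Every knockout lay below every control, at means of 1.69 ± 0.211 FPKM (SD, n = 4) and 3.52 ± 0.350 FPKM (SD, n = 3). The log2 difference was -0.73 ± 0.14 (SE) with limits of -1.05 to -0.41, and the limma adjusted p was 0.245, from 0.119 to 0.805 over 15 alternative settings. At lactation the same gene was 0.580, 0.839 and 0.762 FPKM in controls against 0.612, 1.44 and 1.01 in knockouts, which overlapped and lay below the filter. Control M43914, lowest at involution for 7 of the 12 Ifit, Mx and Oas genes, held more Rsad2 than any knockout.

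Cmpk2, the neighbour of Rsad2 and a nucleotide kinase, stood at 7.74, 4.73 and 8.94 FPKM in involution controls against 4.16, 3.10, 6.82 and 5.43 in knockouts, a log2 difference of -0.45 ± 0.27 (SE) with limits of -1.07 to 0.17. The groups overlapped through control M43768. The difference was -0.69 without that control and -0.29 without knockout M43767. At lactation Cmpk2 was 9.48, 13.9 and 20.9 FPKM in controls against 11.7, 11.1 and 13.5 in knockouts, which made it far more abundant there than Rsad2. Samhd1, which breaks down deoxynucleotides, stood at 29.01, 28.1 and 20.6 FPKM in involution controls against 24.1, 22.1, 18.6 and 16.01 in knockouts, a log2 difference of -0.32 ± 0.20 (SE). All 4 knockouts lay below controls M44448 and M43768, and control M43914 lay among the knockouts. Without M43914 the difference was -0.48. Rtp4, Ifi35, Ifi44 and Xaf1 had log2 differences between -0.35 and 0.16 at involution, with overlapping groups.

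**Figure D4:**
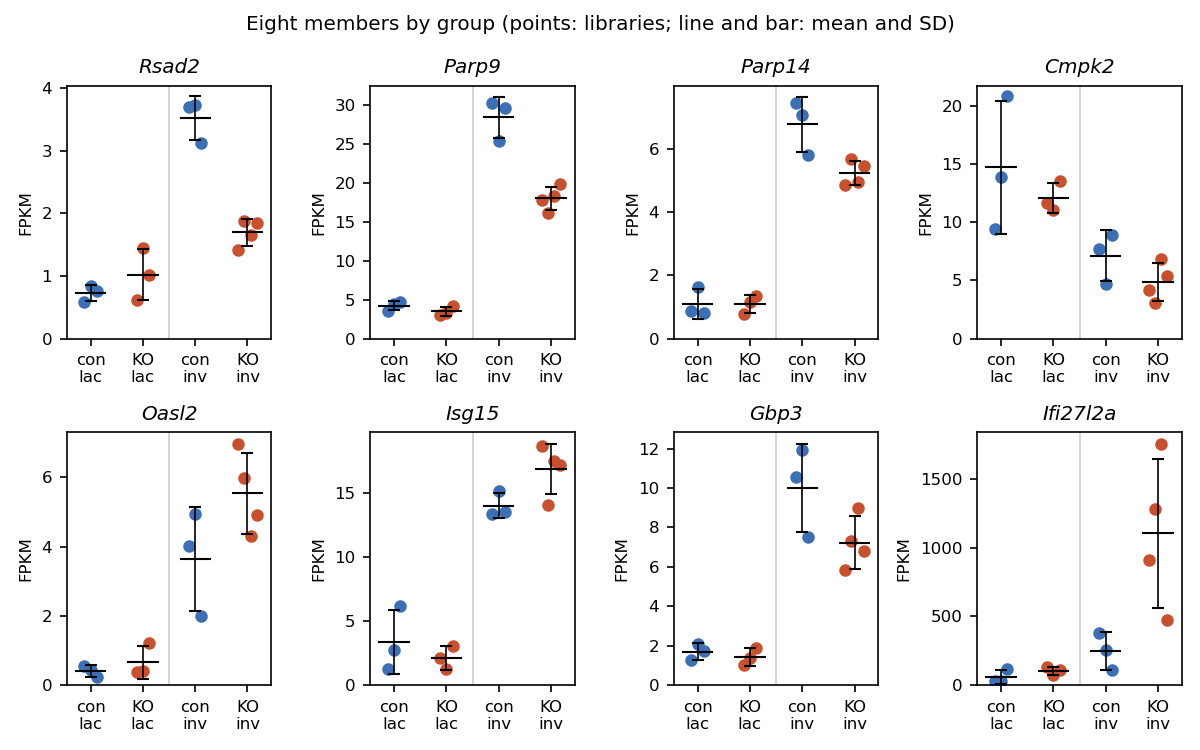
Each point is the FPKM of 1 library, blue for controls and orange for knockouts, at lactation (lac) and involution (inv), for 8 interferon-stimulated genes. The horizontal line is the group mean and the bar the SD (n = 3, and n = 4 for the involution knockouts). At involution the knockouts lie below all controls for Rsad2, Parp9 and Parp14 and above all controls for Ifi27l2a.

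Ifi27l2a, a small membrane protein of the mitochondrion and nuclear envelope, was the most abundant gene of the set and had the highest positive difference. At involution it stood at 382, 253 and 107 FPKM in controls against 915, 1288, 1755 and 476 in knockouts. Every knockout lay above every control, at means of 1109 ± 544 FPKM (SD, n = 4) and 247 ± 138 FPKM (SD, n = 3). The log2 difference was 2.21 ± 0.55 (SE) with limits of 0.94 to 3.49, and the limma adjusted p was 0.417, from 0.197 to 0.906 over 15 alternative settings. At lactation it stood at 27.96, 31.4 and 116 FPKM in controls against 133, 75.3 and 108 in knockouts, a log2 difference of 1.18 ± 0.50 (SE), with 95% limits of 0.03 to 2.34 and a limma adjusted p of 0.998. Control M44175 lay among the lactation knockouts, and the other controls lay well below them. Ifi27l2a has close copies, and the division of shared reads is not stated.

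The summed level of 8 adipocyte markers (Adipoq, Lep, Plin1, Fabp4, Cfd, Cidec, Pparg and Retn) moved with Ifi27l2a across libraries. At lactation the sums were 812, 967 and 2771 FPKM in controls against 1851, 1475 and 2246 in knockouts, with control M44175 highest. At involution they were 8327, 7918 and 4221 FPKM in controls against 11580.1, 15243, 16523 and 4583 in knockouts. All 8 markers had log2 differences above 0 at both stages, with medians of 0.76 and 0.67, and none was at 0 in every library. The orders were not the same throughout. At lactation knockout M44174 held the highest Ifi27l2a level beside only the third sum. At involution the adipocyte sum of knockout M44440 lay below those of controls M44448 and M43768, while its Ifi27l2a level lay above theirs. Other cell types moved as well, and not all in the same direction. Of 8 luminal epithelial markers tested at each stage, 2 had log2 differences above 0 at lactation and 3 at involution. Their median was -0.17 at both stages. At involution Prlr lay lower in the knockouts without overlap, as did 4.42% of all genes tested. At lactation 7 of 7 tested fibroblast markers had log2 differences above 0, with a median of 0.73. So did 6 of 6 tested endothelial markers, with a median of 0.64 and no overlap of the groups for any of the 6. Of all genes tested at lactation, 2.89% lay higher in the knockouts without overlap. Summed endothelial markers at lactation were 21.2, 22.5 and 16.7 FPKM in controls against 29.7, 31.1 and 39.96 in knockouts. At involution 8 of 8 fibroblast markers were above 0, with the sums given beside the Ifitm genes, and 4 of 7 endothelial markers. Of the basal epithelial markers 7 of 8 were above 0 at involution, with a median of 0.39. Their sums did not overlap there, at 416, 244 and 403 FPKM in controls against 463, 546, 467 and 481 in knockouts. The highest sum, in M43767, held 147 FPKM of Krt5 and 177 FPKM of Krt14. The other knockouts held at most 54.1 and 72.0 FPKM of these. M43767 was also the library with 138 FPKM of skin keratinocyte markers, whose part in this sum was not tested. At lactation the basal sums overlapped, at 322, 136 and 139 FPKM in controls against 136, 255 and 238 in knockouts. The part of adipocyte, fibroblast, endothelial, basal or luminal epithelial RNA in the Ifi27l2a difference was not tested.

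**Figure D5:**
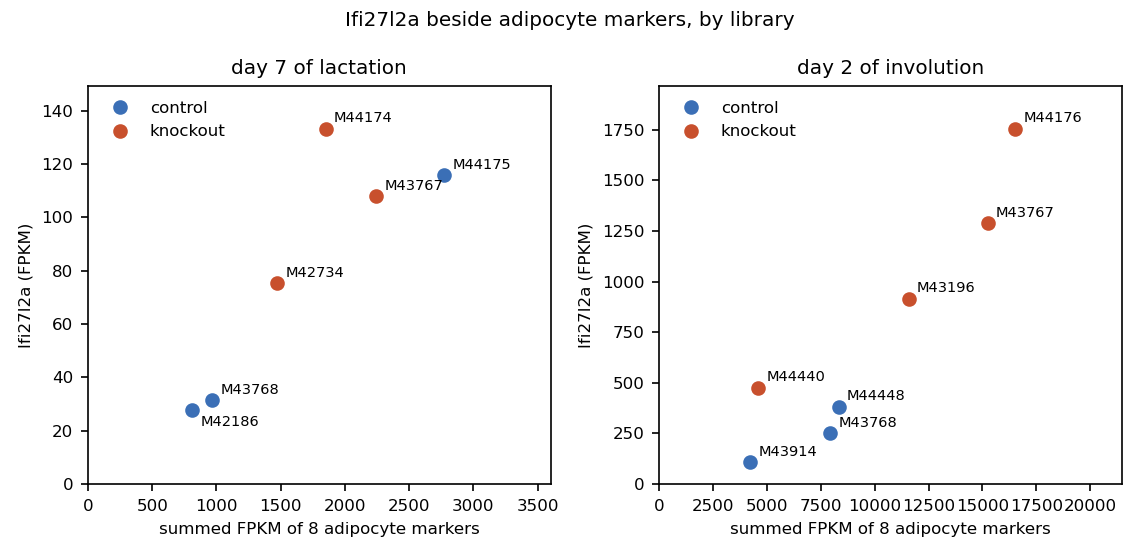
Each point is 1 library, with the summed FPKM of 8 adipocyte markers on the horizontal axis and the FPKM of Ifi27l2a on the vertical axis, at lactation (left) and involution (right), controls in blue and knockouts in orange. The 2 lactation controls with the lowest marker sums are lowest in Ifi27l2a, and the 3 involution knockouts with the highest sums are highest in it. At involution M44440 has more Ifi27l2a than the controls beside a lower marker sum than 2 of them.

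Whether the knockout effect differed between the stages was tested in a joint limma fit, as the difference at involution minus that at lactation. Of the 47 genes 45 could be tested and 0 passed, where 0.0789% of 12667 genes passed. At an unadjusted p under 0.05 it counted 1 higher and 1 lower, Ifi47 and Rsad2, where the background was 1.46% and 1.89%. For Rsad2 the effects differed by -0.97 ± 0.23 (SE) on the log2 scale, with 95% limits of -1.46 to -0.48 and a limma adjusted p of 0.477. Rsad2 was below the filter at lactation and entered this fit through involution, so the value rests on a lactation effect measured near the floor of the scale. With the mouse number as a block, an alternative chosen after seeing the data, its adjusted p in limma was 0.085, and members with an unadjusted p under 0.05 numbered 4 in place of 2. The share of all genes at that cut was not counted with the block. For Ifi47, which lay lower in the knockouts at lactation, the effects differed by 0.59 ± 0.26 (SE), with 95% limits of 0.02 to 1.17 and a limma adjusted p of 0.999. Ifi27l2a differed by 1.03 ± 0.82 (SE) with limits of -0.75 to 2.82, so its higher level in the knockouts was not shown to differ between the stages. This difference was 0.51 without involution control M43914 and 0.44 without lactation control M44175.

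Most of the set stood higher in the involution table. The set was compared with 14800 genes with a mean of at least 0.1 FPKM and a mean above 0 in both lactation groups. Every involution library lay above every lactation library for 35 of the 47 genes (74.5%), against 59.7% of those 14800. Among the Ifit, Mx and Oas genes 10 of 12 did so, with Ifit3 and Oas3 as the exceptions, and among the Gbp and Irg genes 7 of 10, with Irgm2, Igtp and Iigp1 as the exceptions. The median ratio of the group means, involution over lactation, was 4.84 in the controls and 5.06 in the knockouts for the 47 genes, and 2.76 and 2.99 for all those genes. For the Ifit, Mx and Oas genes it was 5.16 in the controls and 8.66 in the knockouts, and for the Gbp and Irg genes 3.43 and 3.09. Cmpk2 stood lower in the involution table in both genotypes, and Iigp1 in the controls. Since the tables may carry separate normalizations, these ratios are a description of the files with no test.

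The upstream pathway was read from a list of ligands, receptors, kinases with transcription factors, inhibitors, and genes of antigen presentation and chemokines. Of 21 interferon ligand genes, 18 were listed at 0 in all lactation libraries and 17 in all involution libraries, and none reached the filter. Ifne reached the highest level of them, at 0.188, 0.544 and 1.70 FPKM in lactation controls against 0, 0.415 and 0 in knockouts. At involution Ifne was 0.414, 0 and 0 FPKM in controls and 0 in every knockout. Ifng, the gene of interferon gamma, was 0.127, 0 and 0.0727 FPKM in involution controls against 0.153, 0.0796, 0 and 0.0494 in knockouts. Of the 6 receptor genes, all tested at involution, 1 had a log2 difference above 0 and 0 passed. Ifnar1, a chain of the type I receptor, stood at 8.25, 9.79 and 8.89 FPKM in controls against 8.87, 8.80, 7.30 and 10.1 in knockouts. Ifngr1, a chain of the interferon gamma receptor, stood at 53.01, 66.8 and 80.2 FPKM in controls against 62.3, 61.4, 64.5 and 64.8 in knockouts. Receptor levels thus overlapped between the genotypes.

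Of the 10 kinases and transcription factors tested at involution, 5 had a log2 difference above 0 and 0 passed. Irf9, the DNA-binding subunit of the factor that binds the ISRE, was the gene of this list whose groups did not overlap: 24.3, 28.1 and 29.3 FPKM in controls against 18.1, 20.1, 18.3 and 21.6 in knockouts. Its log2 difference was -0.43 ± 0.14 (SE) with limits of -0.75 to -0.11 and a limma adjusted p of 0.570. Of all genes tested at involution, 4.42% lay lower in the knockouts without overlap. At lactation Irf9 stood at 8.45, 12.7 and 16.3 FPKM in controls against 6.63, 7.85 and 8.76 in knockouts, where knockout M43767 lay just above control M42186, and the log2 difference was -0.53 ± 0.25 (SE). Stat2, which partners IRF9, stood at 8.18, 13.2 and 7.64 FPKM in involution controls against 6.48, 9.16, 6.02 and 9.05 in knockouts. Its groups overlapped, with control M43768 alone on top. Irf7, which amplifies the type I response, stood at 14.5, 13.3 and 7.18 FPKM in controls against 12.8, 20.2, 14.2 and 14.2 in knockouts, with control M43914 lowest. Its log2 difference was 0.42 ± 0.26 (SE), or 0.12 without M43914. Irf1, an early target of interferon gamma, stood at 23.4, 24.3 and 21.2 FPKM in controls against 19.02, 21.1, 18.3 and 23.7 in knockouts.

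Among the 5 inhibitors tested at involution 2 had a log2 difference above 0 and 0 passed. Socs1, the feedback inhibitor of JAK1 and JAK2 under interferon, was 1.001, 0.105 and 1.51 FPKM in controls against 0.907, 1.26, 1.53 and 1.66 in knockouts, with control M43768 lowest. Groups without overlap were found for Socs3 and the phosphatase gene Ptpn2, lower in the knockouts, against 4.42% of all genes tested at involution. Both were named after their values were seen. Socs3, the feedback inhibitor of receptors that use STAT3, stood at 18.97, 23.4 and 27.99 FPKM in controls against 8.40, 11.3, 8.45 and 9.71 in knockouts, a log2 difference of -1.19 ± 0.17 (SE), with a limma adjusted p of 0.090. Ptpn2 stood at 19.4, 25.3 and 35.6 FPKM in controls against 15.1, 12.7, 10.3 and 11.9 in knockouts, a log2 difference of -0.99 ± 0.22 (SE), with a limma adjusted p of 0.296.

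Of the 14 genes of antigen presentation and chemokines, 13 were tested at involution, 8 with a log2 difference above 0 and a median of 0.17, and 9 at lactation, 3 above 0 and a median of -0.23, and 0 passed at either stage. Psmb8, a subunit of the immunoproteasome, stood at 6.54, 15.6 and 19.8 FPKM in lactation controls against 5.09, 8.52 and 8.13 in knockouts, and at 38.7, 36.7 and 30.8 FPKM in involution controls against 47.9, 34.1, 45.7 and 37.6 in knockouts. Its groups overlapped at both stages. B2m, the light chain of class I molecules and named after its values were seen, stood at 355 to 393 FPKM in lactation controls against 238 to 353 in knockouts, apart only by the narrow gap between control M44175 and knockout M43767. At involution it was 474, 604 and 519 FPKM in controls against 737, 792, 905 and 332 in knockouts, where 3 knockouts lay above the controls and M44440 below. The log2 differences were -0.36 ± 0.30 (SE) at lactation and 0.31 ± 0.36 (SE) at involution. Of all genes tested at lactation, 3.17% lay lower in the knockouts without overlap. Cxcl10, a chemokine induced by both kinds of interferon, was 1.13, 2.63 and 1.06 FPKM in involution controls against 1.20, 1.60, 2.29 and 2.10 in knockouts, so the genotypes overlapped at a low level.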

How the data were processed

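Per the labels' protocols, total RNA of flash-frozen glands was prepared with a TruSeq RNA kit and sequenced on a HiSeq2000. The tools of the authors were TopHat, cutadapt and CASAVA and the build mm9, per the submitters' processing notes. The authors deposited FPKM in 1 table per stage, while tool versions, the FPKM program and how it scaled libraries are not stated in the labels. The depth is unknown, so no counting interval is given. From the deposited FPKM, each library was rescaled by a median-of-ratios factor (0.954 to 1.12), genes that reached 1 FPKM in 3 or more libraries were kept, and log2(FPKM + 1) was fitted with limma 3.58.1 (R 4.3.3, trended variance) per stage and, for the difference between stages, jointly. This scale understates changes of low genes. The fits were tested on simulated data with planted changes larger than any difference of the set. That test does not show whether differences of the size reported here would be found. Named genes were every called gene, the 6 with the smallest p per stage, the 3 most abundant and fixed examples of each role. Parp12, Cmpk2, Trim21, Trim25, Oas1g, Ifit2, Ifne, Socs3, Ptpn2 and B2m were added after their values were seen. The members and lists were chosen with earlier results of these data known. Alternatives were other scalings, filters and pseudocounts, array weights and leaving out each library. The values of 1 gene of the pathway lists are not reported here.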

Additional observations from a re-analysis of the deposited data

How the results depend on the processing

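No interferon-stimulated gene passed the limma threshold under any of the 14 alternatives at lactation, 15 at involution and 22 for the difference between stages. Rsad2, Parp9, Parp14 and Ifi27l2a at involution and Ifi47 and Ifi27l2a at lactation kept their direction under each of these. Scaling by the total outside milk proteins and short RNAs moved the median log2 difference of all genes at lactation from 0.01 to 0.16. The median of the Ifit, Mx and Oas genes at involution, 0.26, was 0.42 with a pseudocount of 0.1 and ran from 0.090 to 0.39 when single libraries were left out. The number of members with an unadjusted p under 0.05 at lactation, 2, was 5 with array weights, 1 with FPKM as deposited, 1 with no filter, 1 with the total scaling, and 1 to 4 without single libraries (1 without control M43768 or knockout M44174, 4 without control M42186). At involution, 3 became 7 with array weights and 3 to 7 without single libraries (7 without control M43768 or control M43914, 6 without knockout M44176, 5 without knockout M44440). For the difference between stages, 2 became 4 with no filter, 1 with quantile normalization, 1 with the total scaling, and 1 to 4 without single libraries (4 without lactation control M42186). Groups without overlap numbered 4 to 12 at involution and 1 to 9 at lactation without single libraries, and 3 at involution after rescaling, an alternative chosen after seeing the data. For these counts too, no share over all genes was taken. Usp18 at involution reversed from 0.07 to -0.0072 with quantile normalization and ran from -0.015 to 0.19 without single libraries, and Gbp2 from -0.41 to 0.081. In each case the cause was not tested. Control and knockout libraries of a stage share no mouse number, so no pairing could be made within a stage. M43768 and M43767 stand at both stages, and the joint fit took all 13 libraries as separate mice. A replicate block on the mouse number in that fit, with a within-mouse correlation of 0.697 estimated from these 2 numbers and chosen after seeing the data, gave 4 members with an unadjusted p under 0.05 in place of 2, 0 passing, and 20 of all genes passing in place of 10. Depth is unknown, and the 12 Ifit, Mx and Oas genes at lactation lie too low for the filter.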
